A study of Oryza sativa with 4 samples.

Results

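The OsLEC1 peaks that lie in the outermost megabase of the rice chromosomes were examined. A peak belonged to this set when its summit, the base with the highest ChIP coverage, lay below position 1000000 of a chromosome or within 1 Mb of the last summit listed on it. The low-numbered ends of chromosomes 11 and 12 were left out, so that 22 ends remained, 10 at low positions (1L to 10L) and 12 at high positions (1R to 12R). Of the 27432 OsLEC1 peaks on the 12 chromosomes, 1710, or 6.23%, were located in these ends, and the whole list with unplaced sequences held 27452 peaks. The next 2 Mb inwards, from 1 to 3 Mb, held 3939 peaks and served as the region of comparison.

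The peaks came from ChIP-seq on callus of Oryza sativa in the Nipponbare background, grown from seeds for 30 days on a medium with 2,4-D. In the OsLEC1-ChIP group, the constitutive 35S promoter drove OsLEC1 with a triple FLAG tag, and a monoclonal antibody against DDDDK was used to precipitate the tagged protein. NIP-ChIP was the same precipitation in untransformed callus, and DNA without precipitation gave NIP-input and OsLEC1-input. Each group had 1 library from 1 line, so that no value below has a replicate check, and the intervals cover counting error only.

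LEC1 is a B subunit of the NF-Y complex, in which subunits B and C form a dimer that resembles paired histones and subunit A recognizes the CCAAT element. It is a central regulator of embryo development and seed maturation, and its forced expression can give vegetative cells an embryonic character. The ends of plant chromosomes carry telomere repeats, followed inwards by subtelomeric sequence in which satellite repeats and gene copies of recent origin are frequent. In rice, gene-rich euchromatin otherwise reaches far towards the ends, while the short arms of chromosomes 4 and 10 are known for much heterochromatin. Only uniquely mapped reads were kept in the alignment, so that no peak could be called inside sequence that is repeated without differences.

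Peaks were fewer in the terminal megabase than further inwards. Together, the 22 terminal megabases held 77.7 peaks per Mb (exact 95% Poisson interval 74.1 to 81.5), and the adjoining 44 Mb held 89.5 per Mb (86.7 to 92.4). The ratio of these densities was 0.868 (exact conditional 95% interval 0.820 to 0.919). The first megabase of the adjoining region, from 1 to 2 Mb, had 2040 peaks and the following one 1899, so that the terminal megabase had fewer than either.

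The difference between the ends was larger than that between terminal and adjoining sequence. The number of peaks per terminal megabase ranged from 24 to 127 with a median of 75.5, and the variance over the 22 ends was 11.8 times the mean, against 18.8 times for the adjoining densities. The adjoining densities are means over 2 Mb, with less counting error, so these values do not share a baseline. The counting intervals take peaks as placed independently and do not cover this unevenness. Across the ends, terminal density went along with the density of the adjoining 2 Mb (Spearman rho 0.801, Pearson r 0.833, n = 22 ends of 1 library, which share depth and antibody).

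**Figure D1:**
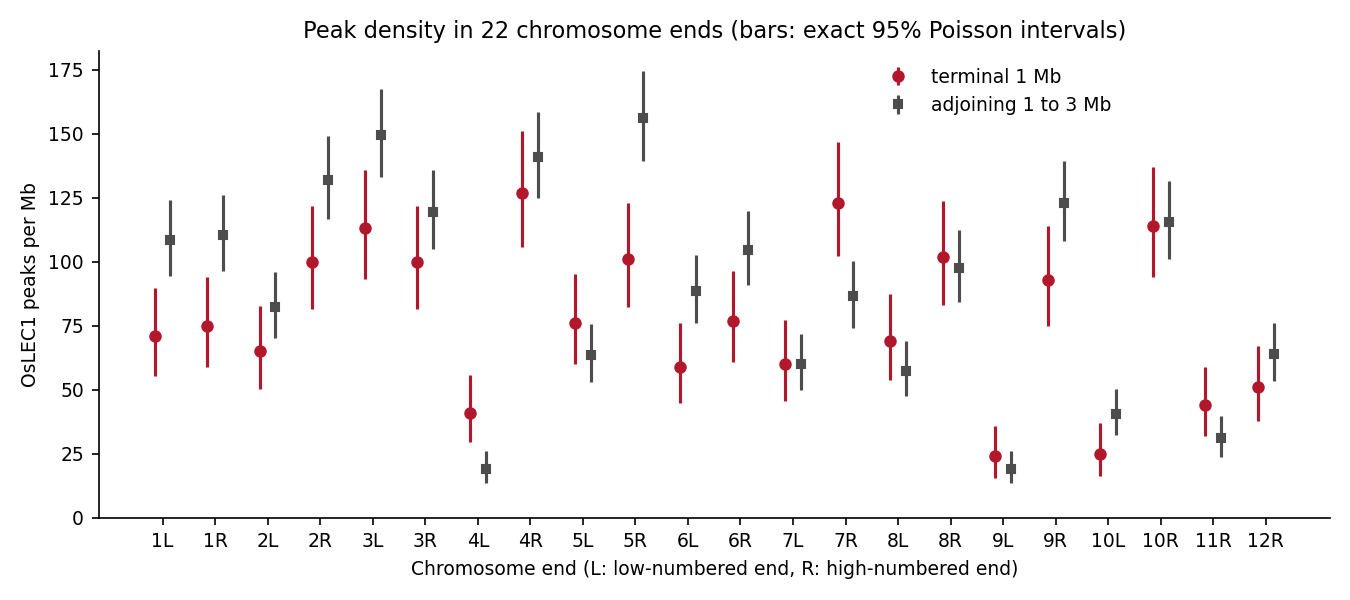
OsLEC1 peaks per Mb (vertical axis) in each of the 22 ends (horizontal axis), as points with exact 95% Poisson intervals, for the terminal 1 Mb (red circles) and the adjoining 1 to 3 Mb (grey squares). The terminal value lies between 24 (9L) and 127 (4R), and it is below the adjoining value in 14 ends, equal in 7L and above it in 7 ends.

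Of the single ends, 14 had a lower density in the terminal megabase than in the adjoining region, 7 had a higher one and 7L had 60 per Mb in both. In 9 ends the whole interval of the ratio lay below 1, and in 2 ends, 4L and 7R, it lay above 1. The other 11 ends did not differ beyond counting error.

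The 9 ends with a lower terminal density were found on chromosomes 1, 2, 3, 5, 6, 9 and 10. End 5R had 20, 27, 26 and 28 peaks in steps of 250 kb from the end inwards, 168 from 1 to 2 Mb and 144 from 2 to 3 Mb, with a ratio of 0.647 (0.512 to 0.813). End 1L had 71 peaks in the terminal megabase and 121 and 96 in the next ones, with a ratio of 0.654 (0.493 to 0.859), and its partner 1R had 75, 110 and 111, with a ratio of 0.679 (0.515 to 0.886). Both ends of chromosome 1 thus had fewer peaks than the sequence next to them. End 6L had 59, 90 and 87 peaks (ratio 0.667), and 6R had 77, 85 and 124 (ratio 0.737), so chromosome 6 showed the same on either side. End 2R had 100, 138 and 126 peaks (ratio 0.758), 3L had 113, 155 and 144 (ratio 0.756), and 9R had 93, 112 and 134 (ratio 0.756). These last 3 ends lay in dense surroundings, with 123 to 149.5 peaks per Mb next to them. End 10L was the exception among the 9, with 25, 38 and 43 peaks and a ratio of 0.617 (0.378 to 0.977) in sparse surroundings.

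In 4L and 7R the terminal megabase was the dense part. End 4L had 41 peaks, followed inwards by 27 and 11, and its ratio was 2.16 (1.35 to 3.45). End 7R had 123 peaks, followed by 103 and 70, with a ratio of 1.42 (1.12 to 1.80). In both, the number of peaks decreased from each megabase to the next over these 3 Mb. Within the terminal megabase of 7R it did not, as the steps of 250 kb from the end inwards held 16, 32, 43 and 32 peaks. In 4L these steps held 13, 13, 8 and 7. Ends 4L and 7R differed in level, as 4L belonged to the sparse ends and 7R was second in number of peaks among the 22.

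The remaining ends had intervals that held 1. Their ratios ranged from 0.788 in 2L, with 65 peaks against 82.5 per Mb, to 1.42 in 11R, with 44 against 31. End 5L had 76 against 63.5 per Mb, 8L had 69 against 57.5 and 8R had 102 against 97.5. End 10R had 114 against 115.5 per Mb, 4R had 127 against 141 and 3R had 100 against 119.5. For 9L the numbers were 24 against 19, and for 12R they were 51 against 64. The interval was widest for 9L, from 0.725 to 2.16, because of its few peaks.

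**Figure D2:**
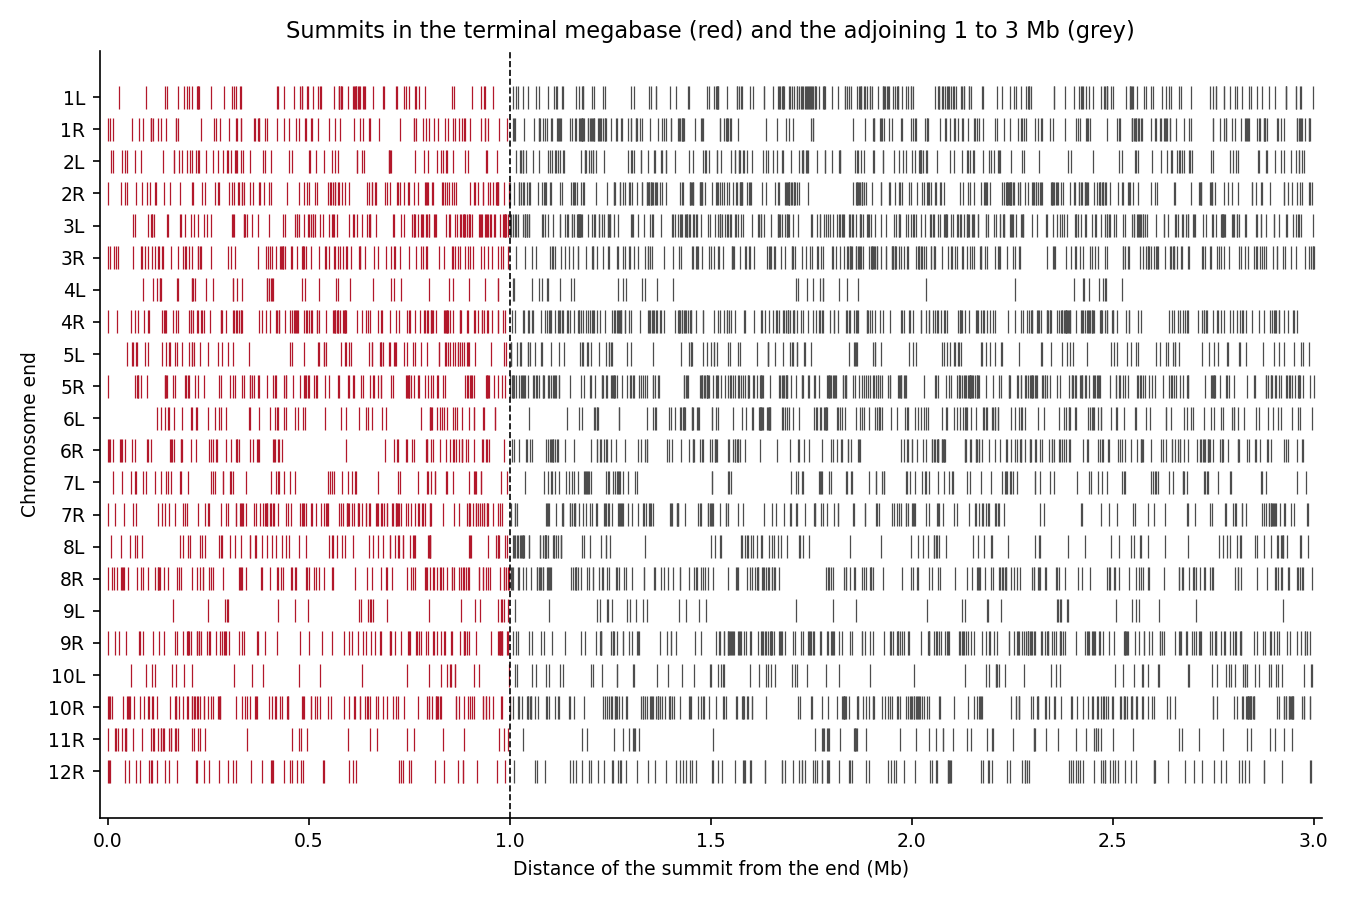
Each vertical stroke is 1 summit, placed by its distance from the end in Mb (horizontal axis) in each of the 22 ends (vertical axis), with the 1710 terminal summits in red and the 3939 adjoining ones in grey. The 29 strokes in the outer 250 kb of 11R and the empty outer part of 9L, up to 162.9 kb, can be seen.

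The high-numbered ends were denser than the low-numbered ones. The 12 right ends held 1107 peaks, or 92.3 per Mb (86.9 to 97.8), and the 10 left ends held 603, or 60.3 per Mb (55.6 to 65.3). On the 10 chromosomes with both ends in the set, there were 1012 peaks on the right and 603 on the left, a ratio of 1.68 (1.52 to 1.86), and the right end had more peaks on 9 of 10. Chromosome 3 was the exception, with 113 peaks in 3L and 100 in 3R. The difference was largest on chromosomes 4, 9 and 10, with 41, 24 and 25 peaks on the left against 127, 93 and 114 on the right. It was smallest on chromosome 1, with 71 against 75. The counting intervals of the left and right ends overlapped on chromosomes 1, 2, 3, 5, 6 and 8. The adjoining regions differed in the same direction, with 107 peaks per Mb on the right and 68.9 on the left. Relative to these, the left ends had a ratio of 0.876 (0.795 to 0.964) and the right ends one of 0.864 (0.805 to 0.928), with intervals that overlapped. The left ends were counted from the first base of the chromosome and the right ends from the last summit, so that each right end began with a peak and a left end did not. When the left ends were also counted from their first summit, the set held 1746 peaks and the ratio was 0.888.

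Density did not change evenly along the terminal megabase. In steps of 250 kb from the end inwards, the 22 ends together held 408, 404, 399 and 499 peaks. This corresponds to 74.2, 73.5, 72.5 and 90.7 peaks per Mb, so that the outer 750 kb had the lower density and the innermost step came close to the adjoining region. From 1 to 5 Mb, the steps of 250 kb ranged from 78 to 99.6 peaks per Mb, and the lowest of them, 2500 to 2750 kb from the end, had an interval (70.8 to 85.7) that overlapped those of the outer steps. The innermost step was the one with most peaks in 12 of the 22 ends. In the right ends the lowest step was the one from 500 to 750 kb, with 246 peaks, and in the left ends it was the outermost one, with 132.

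**Figure D3:**
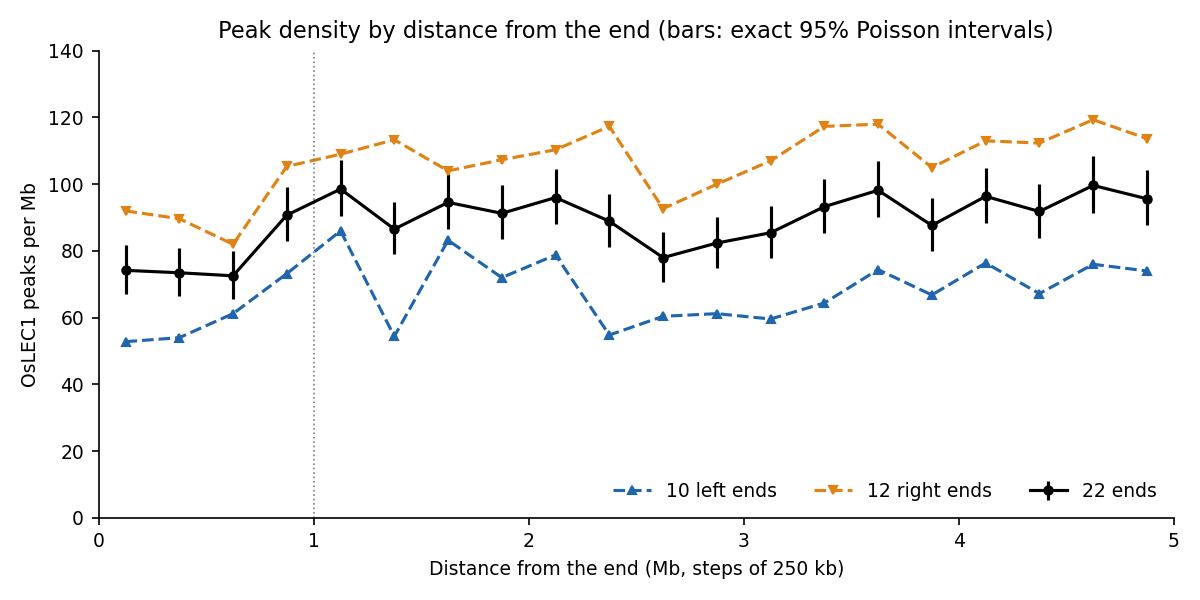
OsLEC1 peaks per Mb (vertical axis) in steps of 250 kb by distance from the end in Mb (horizontal axis), for the 22 ends together with exact 95% Poisson intervals (black), the 10 left ends (blue) and the 12 right ends (orange). The first 3 black points lie between 72.5 and 74.2 and the following one at 90.7, and the right ends stay above the left ends throughout.

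The terminal peaks were also lower. The height of a peak was described by the fold of the peak caller, a ratio of ChIP pileup to local background at the summit, with 1 fragment added to each. Members had a median fold of 4.95 (interquartile range 3.81 to 6.64), adjoining peaks had 5.21 (3.99 to 7.13), and all chromosome peaks had 5.12. The binomial 95% intervals of the medians, 4.80 to 5.08 and 5.12 to 5.33, did not overlap. The median of the terminal megabase was below that of its own adjoining region in 19 of 22 ends. The 3 exceptions were 5L (5.48 against 5.02), 4R (5.48 against 5.15) and 7R (5.26 against 5.19).

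The median ChIP pileup was lower in the members, and the background was equal in its median but lower in some other values. The pileup, recovered as a whole number of fragments over the summit, had a median of 37 fragments in the members (interval 36 to 37) and 39 in the adjoining peaks (39 to 40). The median background was 6.68 fragments in both, which corresponds to 7 input fragments. In single ends the median pileup was below that of the adjoining region in 14, above it in 6 and equal in 2, and the median background was below in 10, above in 6 and equal in 6. The means of the background were 6.90, 6.91, 6.79 and 7.17 in the steps of 250 kb from the end inwards, and 7.18 in the adjoining region. The median pileup went up with the number of peaks in an end (Spearman rho 0.819, Pearson r 0.739), and so did the median background (rho 0.637, r 0.605). For the median fold the relation was weak (rho 0.291, r 0.398), and whether it differs from none was not tested. These are 3 relations over the same 22 ends of 1 library, given as a description.

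Over the 22 ends together, the fold was lowest next to the end. In the outer 250 kb its median was 4.60 (interval 4.41 to 4.84), and in the following steps it was 4.95 (4.65 to 5.14), 5.12 (4.78 to 5.35) and 5.12 (4.90 to 5.33). The median pileup was 34.5, 36, 37 and 39 fragments in the same order. The outermost step had a lower median fold than the adjoining region in 18 of 22 ends, and a lower one than the rest of its own megabase in 16 of 22. Some of these medians rest on few peaks, as the outermost step held 2 in 9L and 8 in 10L. The median fold of this step was 4.68 in the left ends, 4.58 in the right ends and 4.69 without 11R, the end with the lowest fold. In the left ends alone the outermost step was not the lowest, as the following steps had 4.61, 5.33 and 4.87. In the right ends the following steps had 5.08, 5.03 and 5.21. Beyond 1 Mb, the medians of the steps up to 5 Mb ranged from 4.82 to 5.41, and the lowest of them, 3500 to 3750 kb from the end, had an interval (4.56 to 5.07) that overlapped that of the outermost step.

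**Figure D4:**
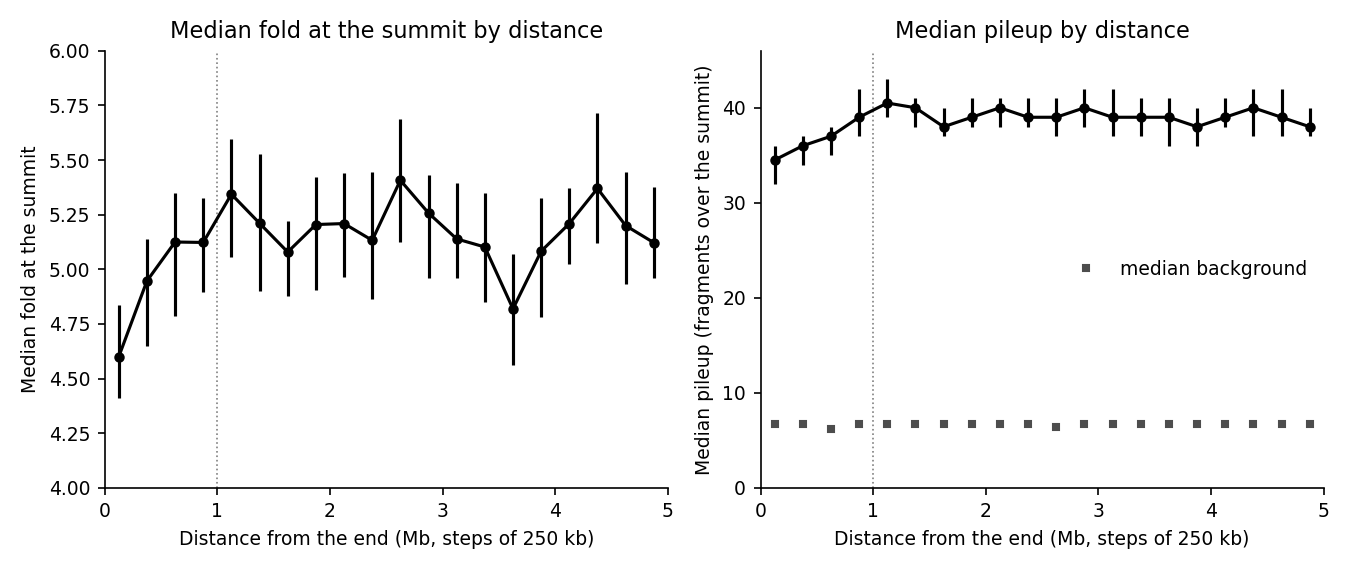
Median fold (left panel, axis from 4 to 6) and median pileup in fragments (right panel, with the median background as grey squares) in steps of 250 kb by distance from the end in Mb, with binomial 95% intervals of the medians. The outermost step has a median fold of 4.60 and a median pileup of 34.5, and steps beyond 1 Mb lie between 4.82 and 5.41 and between 38 and 40.5.

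**Figure D5:**
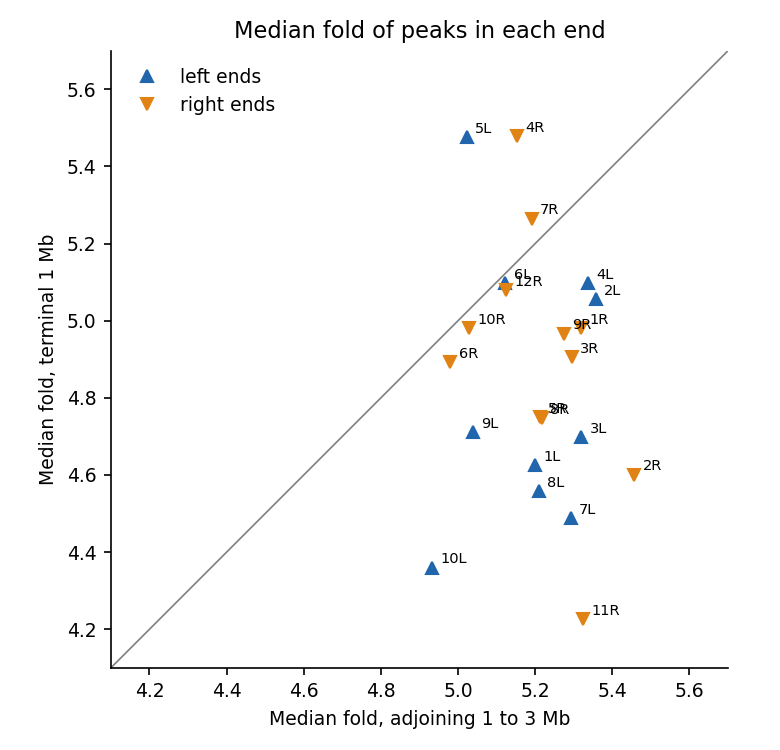
Median fold of the peaks in the terminal 1 Mb (vertical axis) against that of the adjoining 1 to 3 Mb (horizontal axis), with 1 point per end and the line of equal values in grey. All ends except 5L, 4R and 7R lie below the line, and 11R is lowest with 4.23 against 5.32.

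High and broad peaks made up a smaller share of the members, and for high peaks the interval overlapped that of the adjoining peaks. The −log10 q-value, which the peak caller gives to each peak as its adjusted significance, reached 50 in 108 members, or 6.32% (exact 95% interval 5.21 to 7.57%), against 8.00% of all chromosome peaks and 8.02% (7.19 to 8.91%) of the adjoining peaks. By distance, this share was 4.66% in the outer 250 kb and 5.198, 7.02 and 8.02% in the following steps, with intervals that overlapped. In the range from 5 to 10, there were 26.3% of the members (24.2 to 28.5%) and 21.8% of the adjoining peaks (20.5 to 23.1%). Peaks with a high value were spread unevenly over the ends, from 11 in 9R and 10 in 4R to 0 in 9L, 10L and 11R.

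A width of at least 1000 bp was found for 53 members, or 3.10% (2.33 to 4.03%), against 5.21% of all chromosome peaks and 4.70% (4.06 to 5.40%) of the adjoining ones. End 3L held 11 of these broad peaks, 7R held 7, and 7 ends held none. The median width was 381 bp in the members and 402 bp in the adjoining peaks, and it was lower in 17 of 22 ends. In single ends it ranged from 299.5 bp in 9L to 429 bp in 4R. Together, the intervals covered 35.0 kb per Mb in the terminal and 42.9 kb per Mb in the adjoining sequence.

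Neighbouring summits were further apart in the ends. Of the 1688 distances between neighbours inside a terminal megabase, 238 were under 2 kb, or 14.1% (12.5 to 15.9%), against 767 of 3917, or 19.6% (18.3 to 20.9%), in the adjoining region. This share was below that of the own adjoining region in 18 of 22 ends. It ranged from 4.35% in 9L to 22.3% in 3L. The lower density of the ends moved with this share, and its part in it was not tested. The median distance was 7.34 kb in the members and 5.79 kb in the adjoining peaks.

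Close groups of summits occurred in most ends. In total, 104 members belonged to 33 groups of at least 3 summits with steps under 2 kb, located in 16 ends. The largest group had 5 summits within 5.16 kb, on chromosome 3 from 985556 to 991637, with pileups between 25 and 116 fragments. Groups of 4 summits were located on chromosome 2 from 34953903 to 34958212, on chromosome 8 from 799022 to 802881 and on chromosome 9 from 21956049 to 21960495. All but the one on chromosome 8 lay in the innermost 50 kb of their terminal megabase. At the other extreme, 14 members had no other summit within 50 kb. No counts of groups or of isolated summits are given for the adjoining region or for all chromosome peaks. The numbers are therefore not read as a trait of the ends, where distances under 2 kb were less frequent (14.1%) than in the adjoining region (19.6%).

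The members with the highest fold were found in several ends. The member with the highest fold, 33.3, was a 693-bp peak in 5L on chromosome 5 from 824156 to 824848, with 191 fragments (165 to 220 by counting error) and a background of 4.77. The one in 7R, on chromosome 7 from 28926263 to 28927720, followed with a fold of 32.1, from 191 fragments over 4.97. Among all chromosome peaks these ranked 9 and 12 by fold. The intervals of their pileups are the same, and their order has no replicate check.

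The next folds were between 23.0 and 26.4. A peak in 5R on chromosome 5 from 29016357 to 29017065 reached a fold of 26.4 (126 fragments), one in 3R on chromosome 3 from 35754476 to 35755071 reached 26.0 (138 fragments), and one in 12R on chromosome 12 from 27160328 to 27160889 had 25.1 (144 fragments). In 4R, a narrow peak of 459 bp on chromosome 4 from 34565914 to 34566372 reached a fold of 25.03 (122 fragments), and in 7R a further peak on chromosome 7 from 29138651 to 29139232 had 24.9 (123 fragments). The pileups of these 5 peaks had overlapping intervals. The highest pileup of all members belonged to the peak in 6R on chromosome 6 from 30450141 to 30451006, with 241 fragments (212 to 273), and with a background of 9.54 its fold was 23.0. Its −log10 q-value, 235, was the highest among the members.

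The last peaks among the highest 10 had lower folds, while the intervals of their pileups overlapped those of the 5 peaks with folds from 24.9 to 26.4. A peak in 9R on chromosome 9 from 22325718 to 22326260 reached a fold of 18.5 (106 fragments), and one in 6R on chromosome 6 from 31055428 to 31056312 had 18.3 (122 fragments). The latter, at 156.4 kb, was the one of the 10 nearest to the end, and the other 9 were 356.7 kb or more away from it. The outer 250 kb held 408 of all 1710 members, so the places of 10 peaks are not read as a trait of high peaks. Among the 100 chromosome peaks with the highest fold, 8 were members and 16 belonged to the adjoining region, where these sets make up 6.23 and 14.4% of all peaks.

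The outermost peaks of the ends had a pileup near that of the other members, and a median fold near that of the outer 250 kb, 4.60. For the 22 outermost members the fold ranged from 1.87 to 7.51 with a median of 4.61, and it was below the member median of 4.95 in 13 of them, while their median pileup was 38.5 fragments, between 25 and 71. None of them had a −log10 q-value of 50, which 6.32% of all members and 4.66% of those in the outer 250 kb reached. For 22 peaks, this is near those shares. The highest value was 35.7, for a 1160-bp peak in 7L on chromosome 7 from 12725 to 13884 with 69 fragments (53.7 to 87.3). The background was above the median of all members in 11 of the 22. A median splits the members evenly, so 13 of 22 for the fold and 11 of 22 for the background are near an even split. The background was highest in 4R, where the last peak on chromosome 4, from 35501469 to 35501744, had 42 fragments and a background of 21.9. That peak had the lowest fold of all 27432 chromosome peaks, 1.87, and its background was reached by 3 of them, itself included. The last peaks of 9R and 11R also had high backgrounds, 12.4 in each.

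In the left ends, the distance of the outermost summit from the first base could be given. It ranged from 8.42 kb to 162.9 kb with a median of 52.8 kb. The shortest distances were found in 2L, with a peak on chromosome 2 from 8115 to 8699 (51 fragments), and in 8L, with a peak on chromosome 8 from 8485 to 8847 (33 fragments). In 7L and 1L the outermost summits were 13.05 and 27.1 kb away, and in 5L, 10L and 3L they were 47.2, 58.4 and 63.5 kb away. The longest distances were 88.5 kb in 4L, 121.4 kb in 6L and 162.9 kb in 9L. Chromosome lengths were not used, so no such distance is given for the right ends.

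Stretches without a peak were found in every end. The longest one per end ranged from 38.7 kb in 10R to 162.9 kb in 9L, with a median of 75.3 kb. In the left ends the sequence before the first summit was counted, while in the right ends nothing beyond the last summit was. The longest stretch was the outermost one in 3L, 4L, 6L, 9L and 5R. In 5R it lay between the last summit and the one next to it, so left and right ends are not measured alike. A stretch of 159.8 kb in 6R, from 432.8 to 592.6 kb inwards, was the longest one with peaks on either side, and it lay in an end of 77 peaks, close to the median of all ends.

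The 3 ends with most peaks were 4R, 7R and 10R. End 4R had 127 peaks (95% interval 106 to 151), with 24, 33, 31 and 39 in the 4 steps of 250 kb from the end inwards. End 7R had 123 (102 to 147), with 16, 32, 43 and 32, and 10R had 114 (94.0 to 137), with 35, 26, 25 and 28. The intervals of these 3 ends overlapped each other and that of 3L with 113 peaks, so their order is not fixed by the counts. End 4R had the highest median pileup, 43 fragments, and the widest member, a peak of 1964 bp on chromosome 4 from 35269194 to 35271157. That peak had a fold of only 4.31 from 39 fragments, so that the widest member was not a high one.

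The 3 ends with fewest peaks were 9L, 10L and 4L. End 9L had 24 peaks (15.4 to 35.7), with 2, 6, 7 and 9 in the 4 steps, and none in the first 162.9 kb. Its median pileup was 29.5 fragments, between 13 and 76, and its highest fold was 8.48, for a peak on chromosome 9 from 877843 to 878288. The short arm of chromosome 9 carries the ribosomal DNA array of Nipponbare near its end. End 10L had 25 peaks (16.2 to 36.9), with 8, 4, 3 and 10 in the 4 steps and a median distance of 28.4 kb between neighbours. Its pileups ranged from 13 to 49 fragments, and its highest fold, 8.91, came from 39 fragments over the lowest background of the list, 3.49. This background was a floor that 1240 peaks of the list shared. End 4L had 41 peaks (29.4 to 55.6), with 13, 13, 8 and 7 in the 4 steps. It reached a fold of 14.3 for a peak on chromosome 4 from 969927 to 970359, with 63 fragments over the same floor of 3.49. The numbers of 9L and 10L were the same within counting error, and the intervals of 4L and 9L, and of 4L and 10L, overlapped as well. The interval of 4L also overlapped those of 11R with 44 peaks (32.0 to 59.1) and 12R with 51 (38.0 to 67.1), so its place in the order is not fixed by the counts.

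The peaks of 11R were gathered next to the end, which was noticed after its values were seen. Of its 44 peaks, 29 lay in the outer 250 kb, or 65.9% (50.1 to 79.5%), followed by 5, 4 and 6 in the next steps. In the other 21 ends this share lay between 8.33 and 33.3%. The 29 peaks were low, with a median pileup of 29 fragments, between 12 and 69, and folds from 2.43 to 8.56 with a median of 3.83. The 15 peaks further inwards in the same megabase had a median fold of 5.81. The one of the 29 with the highest fold, on chromosome 11 from 28935986 to 28936479, had 45 fragments over a background of 4.38. Without 11R, the ratio of terminal to adjoining density over the other ends was 0.859, and the outer step held 379 peaks in place of 408.

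At the limit of 1 Mb itself, members and adjoining peaks met without a gap. The nearest summit inside was 609 bp from the limit, in 10R on chromosome 10 from 22195541 to 22195873, with a fold of 5.80. The nearest one outside was 129 bp beyond it, in 5R on chromosome 5 from 28824217 to 28824563, with a fold of 4.11. In the 50 kb inside the limit there were 89 summits with a median fold of 4.85, and in the 50 kb outside it there were 118 with a median of 5.45. The median background was 7.37 inside and 6.68 outside. Median folds of neighbouring steps of 100 kb differed as much, with 5.65, 4.98, 5.65 and 4.86 from 800 to 1200 kb. No step at the limit is therefore read from these values.

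NIP-ChIP, the control without a tag, had 2 peaks in all, and 0 of them lay in the 22 terminal megabases or in the adjoining regions. The lowest background in that list, 0.842 fragments, is an upper limit for its mean coverage, against 3.49 in OsLEC1-ChIP, so that peaks of the height of members could have been missed in the control. For how many members this holds was not tested. When only peaks with a −log10 q-value from 10 upwards were counted, the number of members was 1135 in place of 1710 and the ratio of densities was 0.800.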

How the data were processed

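Reads of 4 libraries were, per the methods of the study, aligned to IRGSP-1.0 with Bowtie2 and kept when uniquely mapped, and MACS2 called peaks against the input at a q-value of 0.01. The submitters' processing notes give Bowtie2 2.3.4.1 and MACS2 2.1.2. A reproducibility filter for replicates is also named, while the labels show 1 library per group. Repeat content and mappability were not analysed here.

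The authors deposited for each peak a position, a score, a fold (a ratio of pileup to background), a −log10 p-value and a −log10 q-value. Pileup and background were solved from the fold and the −log10 p-value, with a whole-number pileup matching it within 0.001, for 100% of the peaks. On 2000 simulated peaks, 100% were recovered. Depth is given as these fragments, since library totals were not used. Counts have exact Poisson intervals, shares Clopper-Pearson intervals, density ratios conditional binomial intervals, and medians order-statistic intervals, all at 95% and without replicates. Starts are given 1-based. Python 3.11.15 and scipy 1.17.1 were used.

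The regions and summaries were chosen with earlier results of these data known. Named were the 3 ends with most and with fewest peaks, the outermost peak of each end, the 10 members with the highest fold, and those with the highest pileup and width. Genome sequence and gene positions of IRGSP-1.0 were not used here, so gene starts, motifs and gene lists were not analysed here. The gene table at hand was of another assembly. Alternatives concerned the q-value limit, window lengths and the ends used.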

Additional observations from a re-analysis of the deposited data

How the results depend on the processing

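The terminal to adjoining ratio stayed below 1 under every setting run. It was 0.800 when the limit on −log10 q was 10 and 0.817 as the median of the single ends, and the cause of these lower values was not tested. Leaving out each end in turn (leave-one-out) gave 0.843 to 0.887, and the ratio of the median folds, 0.949, gave 0.939 to 0.953. That fold ratio was 0.975 at the limit of 10 and 0.909 for the outer 0.5 Mb. At the limit of 10, the number of members was 1135, the median pileup 44, the median fold 5.94, the median width 417 bp, and the share of distances under 2 kb 8.81%, by construction, since low peaks were dropped. At the limit of 5, the median pileup was 38 and the median fold 5.13. A distance of 1 kb gave 3.73%. Adding the left ends of chromosomes 11 and 12 (chosen after seeing the data, like all settings of the fold ratio and the one without 4L, 9L and 10L, 0.857) gave 1791 members and a ratio of 0.856. Settings that need chromosome lengths, gene starts or motifs were not run. No paired analysis was possible because groups held single libraries. Depth limits the NIP control.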
